A study of Mus musculus with 16 samples.

Results

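Fibroblast transcription factors were 8 genes of the 22372 protein-coding genes measured in mouse heart ventricles, namely Meox1, Runx1, Runx2, Scx, Sox9, Tcf21, Prrx1 and Twist1. They were taken by gene symbol. The symbols matched 9 rows of the table, because Runx2 has 2 gene identifiers, and the second Runx2 row held 0 reads in all 16 libraries. All 8 genes passed the filter on low counts, none through a single group alone, and were among the 13331 genes tested.

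RNA was sequenced from ventricle pieces of male C57BL/6J mice, 10 to 12 weeks old at the start, in 4 groups of 4 mice. Transverse aortic constriction (TAC) narrows the aortic arch with a suture and loads the left ventricle with pressure, and sham mice had the same operation without the suture. THZ1 binds covalently to Cdk7, and also to Cdk12 and Cdk13, kinases that act on RNA polymerase II. According to the labels it was injected intraperitoneally at 10 mg/kg, 2 times daily, over days 1 to 60. Mice that had the sham operation formed the groups Sham-Veh and Sham-THZ1, and constricted mice formed TAC-Veh and TAC-THZ1, where Veh is the vehicle. No gene was deleted in any group, and the drug was given to the whole animal, not to the heart alone.

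Cardiac fibroblasts lay down and turn over the matrix of the heart, and under injury or load they become matrix-secreting, contractile cells. Tcf21 is a basic helix-loop-helix factor needed to form cardiac fibroblasts and is kept in resting ones, and Prrx1 is a homeobox factor of mesenchyme. Scx and Sox9 direct tendon and cartilage programs and their collagens, and Runx2 is the master factor of bone with Runx1 as its close relative. Meox1 is a homeobox factor of the somites that also acts in activated cardiac fibroblasts, and Twist1 is a helix-loop-helix factor of mesenchyme and of epithelial to mesenchymal transition.

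The libraries held 21.4 to 35.8 M (mega) reads counted in genes. Cardiomyocyte marker transcripts were present in every library, as the labelled tissue requires, and Postn, the matrix gene periostin, was at 20098 to 65868 normalized counts in the TAC-Veh libraries against 1141 to 1721 in Sham-Veh. Cyp1a1, a gene of xenobiotic metabolism, had 115 to 256 normalized counts in Sham-THZ1 and 850 to 1541 in TAC-THZ1, with no overlap. The 8 vehicle libraries had 0 to 16.1. A normalized count is the number of reads in a gene divided by a size factor for the library. Over the 8 genes, reads per library ran from 14 for Runx2 to 4335 for Meox1, so all were above the 3 reads that a count of 0 allows, a limit that covers counting error alone. The lowest counts, those of Runx2 and Twist1, carried the largest counting error, which alone gives a coefficient of variation of up to 23.2% in a group for Runx2 and up to 19.6% for Twist1.

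Levels between genes were compared as normalized counts per kb of exon. In Sham-Veh, Tcf21 had 159 ± 16.6 (SD, n = 4), Meox1 155 ± 22.2 and Prrx1 144 ± 6.40 per kb, and the ranges of neighbours in this order overlapped. These 3 genes were above 60.5% to 63.1% of the genes tested. Scx followed with 65.0 ± 9.74 per kb and Twist1 with 22.4 ± 3.02, each apart from the gene above it. Sox9 had 16.5 ± 2.33 per kb, in a range that overlapped that of Twist1. Runx1 had 9.26 ± 1.22 per kb and Runx2 2.86 ± 0.739, and Runx2 was above 2.96% of the genes tested. With the longest transcript as the length, Prrx1 moved to the top of the order at 244 per kb.

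In TAC-Veh the order was led by Meox1, at 852 ± 415 per kb (SD, n = 4), with its lowest library above the highest library of any other factor. Scx moved from the fourth place to the second, at 256 ± 76.4 per kb, and its range overlapped that of Tcf21 at 211 ± 58.2. Prrx1 was in the fourth place at 119 ± 24.3 per kb. Twist1, Sox9, Runx1 and Runx2 kept the last 4 places in TAC-Veh, with ranges that overlapped between Twist1 and Sox9 and between Sox9 and Runx1. In TAC-THZ1 Meox1 was again first at 215 ± 47.7 per kb, but its range overlapped that of Tcf21 at 180.5 ± 27.9.

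**Figure D1:**
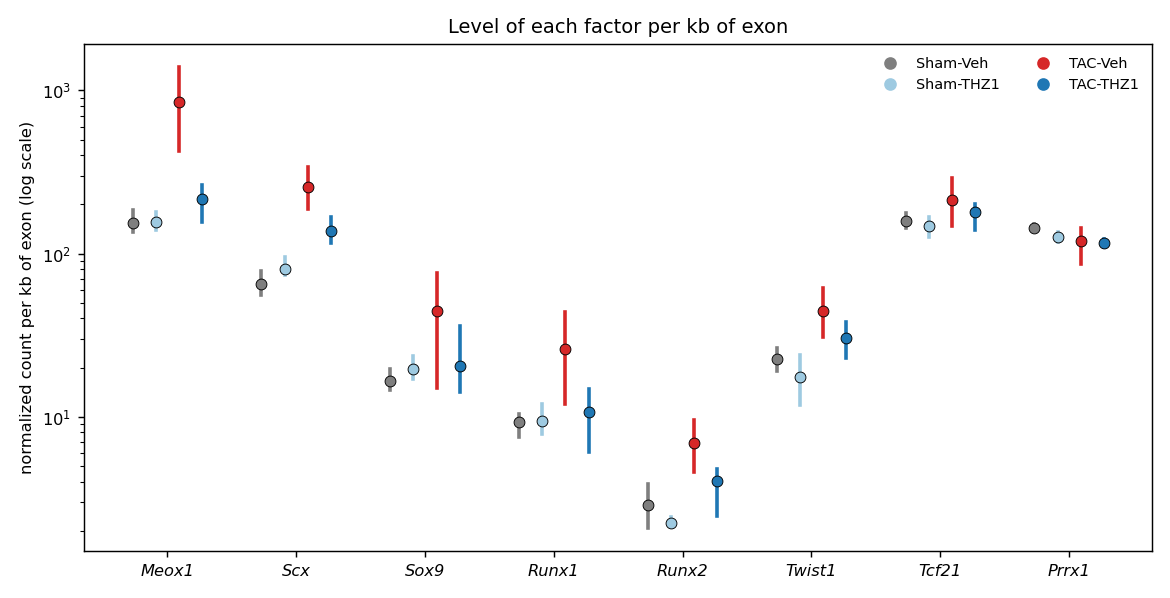
Normalized count per kb of merged exon (log axis) for the 8 factors. Points are means and bars run from the lowest to the highest of 4 libraries per group. Meox1 and Scx stood highest in TAC-Veh, and Runx2 was the lowest factor in all 4 groups.

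Vehicle-treated mice with and without constriction were compared to ask how the factors responded to pressure overload. Meox1, Scx, Runx1, Runx2, Sox9 and Twist1 rose, Prrx1 fell and Tcf21 did not pass the test (limma, adjusted p under 0.05 over all genes). The 6 of 8 that rose stand beside 21.4% of all genes tested, and the 1 that fell beside 23.6%. With the fold of at least 2 used in the study, 5 rose, beside 4.64% of all genes, since Twist1 was just under it. The values of the groups did not overlap for Meox1, Scx, Runx1, Runx2 and Twist1, which were 5 of 8, beside 18.2% of all genes, and no factor was lower without overlap, beside 19.1%. The median log2 fold change of the 8 factors was 1.21, and that of all genes was -0.00. In bulk tissue, more cells of a type and more RNA per cell cannot be told apart.

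TAC-THZ1 was set against TAC-Veh to ask how the drug acted in constricted hearts. Meox1, Runx1, Scx and Runx2 fell, 4 of 8 beside 14.2% of all genes, and none of the 8 rose, beside 15.1%. With the fold threshold that the study used for the drug, a log2 change of 0.89, only Meox1 and Runx1 fell, beside 3.62% of all genes. The groups did not overlap for Meox1 and Scx, 2 of 8 beside 10.5% of all genes for lower values, and for none with higher values, beside 9.53%. The median log2 fold change was -0.81 for the 8 factors and 0.01 for all genes. This comparison shares the TAC-Veh libraries with the one before it, so a library that is high in TAC-Veh enters both with opposite sign, and their agreement is not a result.

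**Figure D2:**
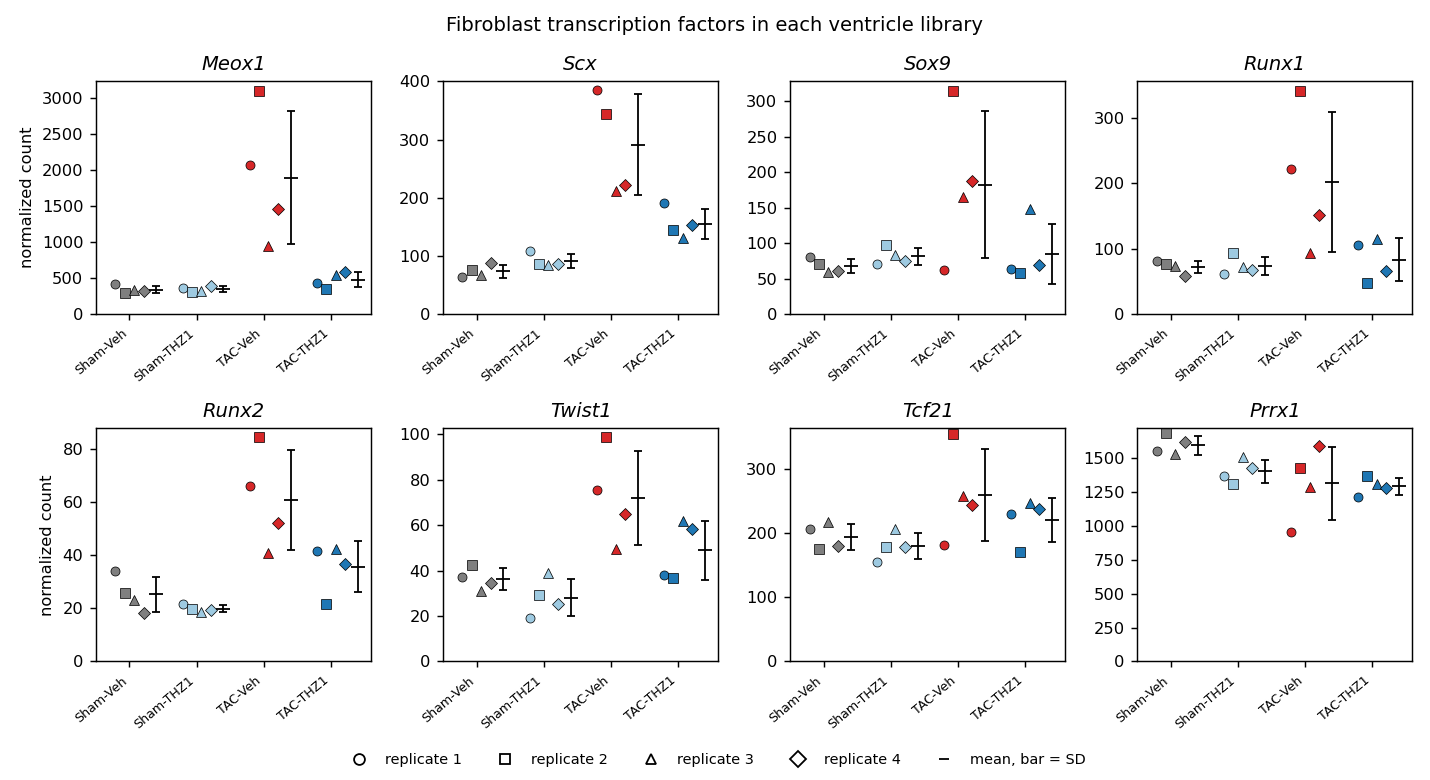
Normalized counts of the 8 factors in every library, by group, with linear axes from 0. Each symbol shape is a replicate number, and the bar gives mean ± SD (n = 4). TAC-Veh replicate 2 was the highest TAC-Veh library for 6 of the 8 factors, and TAC-Veh replicate 1 sat at the sham level for Sox9.

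Meox1 (ENSMUSG00000001493.9, chromosome 11, 101738824 to 101755688, minus strand, NCBIM37) was the factor with the largest response. Its normalized counts were 415, 300.0, 336 and 326 in Sham-Veh and 361, 310.3, 318 and 400.2 in Sham-THZ1. They were 2079, 3099.7, 953 and 1462 in TAC-Veh and 440.1, 349, 545 and 584 in TAC-THZ1. Every TAC-Veh library was above every library of the other groups, while 3 of the 4 TAC-THZ1 libraries were above the sham range and 1 was within it. TAC-Veh was 5.05-fold higher than Sham-Veh (log2 fold change 2.34, SE 0.26, adjusted p 3.94e-06). TAC-THZ1 was 3.68-fold lower than TAC-Veh (log2 fold change -1.88, SE 0.26, adjusted p 0.000146). Both calls held without any 1 of the 16 libraries, with log2 fold changes of 2.06 to 2.62 and of -2.16 to -1.60. Against Sham-THZ1, TAC-THZ1 was 0.44 higher on the log2 scale (SE 0.26, adjusted p 0.217), and this value passed the test when only those groups were fitted (adjusted p 0.0418).

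Scx (scleraxis, ENSMUSG00000034161.7, chromosome 15, 76287868 to 76289898, plus strand) lies within the span of Bop1 on the other strand, with no shared exon bases. It had 63.6, 76.2, 67.2 and 88.5 normalized counts in Sham-Veh and 109, 86.4, 84.1 and 86.1 in Sham-THZ1. TAC-Veh mice had 384, 345, 212 and 222, and TAC-THZ1 mice had 191, 145, 131 and 153. Its TAC-Veh libraries were above all TAC-THZ1 libraries, and these in turn were all above the 8 sham libraries. It was the only factor of the 8 with that order of non-overlapping groups. TAC-Veh was 3.80-fold higher than Sham-Veh (log2 fold change 1.93, SE 0.18, adjusted p 1.06e-06). TAC-THZ1 was 1.82-fold lower than TAC-Veh (log2 fold change -0.87, SE 0.18, adjusted p 0.00257) and 1.68-fold higher than Sham-THZ1 (log2 fold change 0.75, SE 0.18, adjusted p 0.00864). These calls at an adjusted p of 0.05 held without any 1 of the 16 libraries.

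Sox9 (ENSMUSG00000000567.4, chromosome 11, 112643538 to 112649074, plus strand) had the widest spread between animals of the 8 factors in TAC-Veh, with a coefficient of variation of 56.8%. It had 80.6, 70.6, 60.1 and 60.9 normalized counts in Sham-Veh and 70.4, 97.7, 82.8 and 75.0 in Sham-THZ1. TAC-Veh had 62.3, 315, 165 and 187, with a 5.05-fold span between its libraries, and TAC-THZ1 had 64.4, 58.6, 148 and 69.3. In TAC-Veh, 3 libraries were above the sham range and replicate 1 was within it, although that library had the highest Scx count of all 16. The rise with TAC was 2.31-fold (log2 fold change 1.21, SE 0.36, adjusted p 0.0127), and without TAC-Veh replicate 2 the value was 0.87 with an adjusted p of 0.0507. TAC-THZ1 against TAC-Veh gave -0.98 (SE 0.36, adjusted p 0.0504), just outside the threshold. The count models called this difference, with an adjusted p of 0.00998 in DESeq2 and 0.0282 in edgeR, as did the fits without TAC-Veh replicate 1 (-1.43, adjusted p 0.00148) and without TAC-THZ1 replicate 3 (-1.28, adjusted p 0.0138). Without TAC-Veh replicate 2 the value was -0.65 (adjusted p 0.183), and without TAC-THZ1 replicate 2 it was -0.84 (adjusted p 0.135).

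Runx1 (ENSMUSG00000022952.9, chromosome 16, 92601712 to 92826311, minus strand) had 80.6, 76.2, 73.4 and 58.6 normalized counts in Sham-Veh and 60.8, 93.3, 72.1 and 67.9 in Sham-THZ1. It had 222, 341, 93.1 and 152 in TAC-Veh and 106, 47.1, 115 and 66.3 in TAC-THZ1. TAC-Veh did not overlap Sham-Veh, although TAC-Veh replicate 3 was just below the highest Sham-THZ1 library. TAC-THZ1 ran from below to above the sham range and overlapped TAC-Veh. The rise with TAC was 2.50-fold (log2 fold change 1.32, SE 0.32, adjusted p 0.00340) and held without any 1 library. The fall with THZ1 was 2.29-fold (log2 fold change -1.19, SE 0.32, adjusted p 0.0114), and the call ended when only those groups were fitted (adjusted p 0.0796).

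Runx2 (ENSMUSG00000039153.9, chromosome 17, 44632936 to 44951746, minus strand) had the fewest reads. Its normalized counts were 33.9, 25.7, 23.0 and 18.4 in Sham-Veh and 21.5, 19.9, 18.7 and 19.2 in Sham-THZ1. TAC-Veh mice had 65.8, 84.4, 40.6 and 52.0, and TAC-THZ1 mice had 41.5, 21.6, 42.3 and 36.6. All TAC-Veh libraries were above the sham range, as were 3 of the 4 TAC-THZ1 libraries. TAC-Veh was 2.32-fold higher than Sham-Veh (log2 fold change 1.21, SE 0.25, adjusted p 0.000905), a call that held without any 1 library. TAC-THZ1 was 1.68-fold lower than TAC-Veh (log2 fold change -0.75, SE 0.25, adjusted p 0.0316). This fall did not pass without TAC-Veh replicate 1 (-0.70, adjusted p 0.0619), TAC-Veh replicate 2 (-0.58, adjusted p 0.116) or TAC-THZ1 replicate 2 (-0.54, adjusted p 0.114). The second Runx2 identifier shares 28.7% of the exon bases of the first on the same strand, and reads in shared bases are by default assigned to neither gene by htseq-count, so the level of Runx2 may be understated. Over the 6305 exon bases that are not shared, its Sham-Veh level was 4.00 per kb, and it stayed the lowest of the 8.

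Promoter sequences of the RUNX genes are shown because both genes rose together and because one stretch is common to them. RefSeq (GRCm38.p6) gave 6 promoters for 5 of the 8 factors, each 250 bases before to 50 bases after a transcript start, and none was printed for Meox1, Scx or Sox9. Runx1 has 2 of them, at chr16:92826025-92826324 (promoter 1) and chr16:92697280-92697579 (promoter 2), and Runx2 has one at chr17:44814578-44814877, all on the minus strand. Capitals mark ACCACA or its reverse complement TGTGGT, the core letters bound by RUNX proteins, searched on both strands.
Runx1 promoter 1: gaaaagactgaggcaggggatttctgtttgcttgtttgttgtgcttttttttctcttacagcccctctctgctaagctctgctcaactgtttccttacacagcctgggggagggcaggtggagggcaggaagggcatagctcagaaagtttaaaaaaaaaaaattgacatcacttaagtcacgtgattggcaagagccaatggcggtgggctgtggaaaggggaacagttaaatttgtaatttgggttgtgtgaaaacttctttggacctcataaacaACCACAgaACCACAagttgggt
Runx1 promoter 2: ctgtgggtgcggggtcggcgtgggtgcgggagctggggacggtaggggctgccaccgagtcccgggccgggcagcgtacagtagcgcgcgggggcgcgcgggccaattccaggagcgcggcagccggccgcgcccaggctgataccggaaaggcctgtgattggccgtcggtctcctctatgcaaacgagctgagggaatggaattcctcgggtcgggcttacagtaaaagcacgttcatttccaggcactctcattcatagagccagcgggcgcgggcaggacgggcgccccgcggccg
Runx2: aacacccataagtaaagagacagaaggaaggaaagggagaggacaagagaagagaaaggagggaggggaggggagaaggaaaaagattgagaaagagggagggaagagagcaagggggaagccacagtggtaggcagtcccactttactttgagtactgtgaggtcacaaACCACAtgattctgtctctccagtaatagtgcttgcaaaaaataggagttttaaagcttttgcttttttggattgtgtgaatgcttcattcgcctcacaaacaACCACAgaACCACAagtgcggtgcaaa

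The first Runx1 promoter held these letters 2 times and the Runx2 promoter 3 times, against 0 in the second Runx1 promoter and 0 in those of Tcf21, Prrx1 and Twist1. Of 32851 promoters in the RefSeq table, 16.8% held the letters at least once, 1.81% at least 2 times and 0.183% at least 3 times. The longest run of letters shared between promoters of the factors was 22 bases, in Runx1 promoter 1 and Runx2, and no other promoter in the table held it.
Shared run: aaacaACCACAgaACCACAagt
It lies in both genes within the 50 bases after the start and carries 2 of the matches. The E-box letters CANNTG, which helix-loop-helix factors such as Twist1, Tcf21 and Scx bind, occurred 3 times in Runx1 promoter 1 and 2 times in Runx2, where both overlap a RUNX match, and in none of the other 4 promoters, while 72.3% of all promoters hold them. The AP-1 letters TGANTCA were in none of the 6, against 7.81% of all promoters. The Twist1 promoter held TATAAA and GGGCGG once each, found in 13.6% and 35.7% of all promoters. These are matches of letters, and the table of counts does not tell which Runx1 promoter was used.

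Twist1 (ENSMUSG00000035799.5, chromosome 12, 34642536 to 34644682, plus strand) had 37.1, 42.5, 30.9 and 34.5 normalized counts in Sham-Veh and 19.1, 29.4, 38.7 and 25.3 in Sham-THZ1. It had 75.2, 98.7, 49.5 and 64.7 in TAC-Veh and 38.2, 36.9, 61.8 and 58.4 in TAC-THZ1. All TAC-Veh libraries were above the sham range, and TAC-THZ1 was split, with 2 libraries above that range and 2 within it. TAC-Veh was 1.91-fold higher than Sham-Veh (log2 fold change 0.94, SE 0.24, adjusted p 0.00487), and this held without any 1 library. TAC-THZ1 against TAC-Veh gave -0.55 (SE 0.24, adjusted p 0.0988). Against Sham-THZ1, TAC-THZ1 was higher by 0.78 (SE 0.24, adjusted p 0.0280), a call that ended without Sham-THZ1 replicate 1 (0.62, adjusted p 0.0918), Sham-THZ1 replicate 4 (0.75, adjusted p 0.0696), TAC-THZ1 replicate 3 (0.66, adjusted p 0.0846) or TAC-THZ1 replicate 4 (0.68, adjusted p 0.0780).

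Tcf21 and Prrx1 are factors of the fibroblast lineage, and on normalized counts they had the smallest log2 fold changes of the 8 with TAC and with THZ1 in TAC. Tcf21 (ENSMUSG00000045680.7, chromosome 10, 22537085 to 22539934, minus strand) had 206, 175, 217 and 179 normalized counts in Sham-Veh and 155, 179, 206 and 178 in Sham-THZ1. TAC-Veh mice had 181, 353, 258 and 243, and TAC-THZ1 mice had 229, 171, 247 and 237. Of the TAC-Veh and TAC-THZ1 libraries, 3 of 4 in each group were above the sham range. TAC-Veh against Sham-Veh gave 0.38 (SE 0.17, adjusted p 0.0727), and DESeq2 (0.42, adjusted p 0.0352), edgeR (0.43, adjusted p 0.0438) and the fit without TAC-Veh replicate 1 (0.54, adjusted p 0.00815) called it higher. Without TAC-Veh replicate 2 it was 0.21 (adjusted p 0.267). TAC-THZ1 against TAC-Veh gave -0.20 (SE 0.17, adjusted p 0.380).

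Prrx1 (ENSMUSG00000026586.8, chromosome 1, 165175247 to 165243841, minus strand) had 1552, 1684, 1527 and 1619 normalized counts in Sham-Veh and 1364, 1310.2, 1505 and 1428 in Sham-THZ1. TAC-Veh mice had 957, 1430.1, 1285 and 1589, and TAC-THZ1 mice had 1213, 1367, 1306 and 1276. Its TAC-Veh libraries spanned from well below the sham range to within it. It fell 1.23-fold with TAC (log2 fold change -0.30, SE 0.11, adjusted p 0.0343), but the call ended with upper quartile scaling (adjusted p 0.0596), with quantile normalization (adjusted p 0.0657) and when only those groups were fitted (adjusted p 0.108). It also ended without TAC-Veh replicate 1 (-0.16, adjusted p 0.0905), TAC-Veh replicate 3 (-0.30, adjusted p 0.0572), Sham-Veh replicate 1 (-0.31, adjusted p 0.0515), Sham-Veh replicate 2 (-0.28, adjusted p 0.0866) or Sham-Veh replicate 4 (-0.29, adjusted p 0.0702). TAC-THZ1 and TAC-Veh differed by -0.00 (SE 0.11, adjusted p 0.983), with a group mean of 1291 ± 64.1 in TAC-THZ1 and 1315 ± 269 in TAC-Veh (SD, n = 4).

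TAC-THZ1 was set against Sham-THZ1 to ask how pressure overload acted in treated mice, a comparison that shares no library with TAC-Veh against Sham-Veh. Scx, Runx2 and Twist1 rose, 3 of 8 beside 11.4% of all genes, and none fell, beside 12.8%. The groups did not overlap for Scx and Runx2, 2 of 8 beside 15.7% of all genes, and none was lower without overlap, beside 17.7%. The call for Runx2 (1.70-fold, log2 fold change 0.77, SE 0.25, adjusted p 0.0343) ended without TAC-THZ1 replicate 1, 3 or 4 or any 1 Sham-THZ1 library, with adjusted p-values of up to 0.0977. Runx1 (0.11, SE 0.32) and Sox9 (-0.03, SE 0.36) had adjusted p-values of 0.831 and 0.959. The median log2 fold change was 0.37 for the 8 factors and 0.00 for all genes.

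In sham mice the drug changed none of the 8 factors at an adjusted p of 0.05 with limma, DESeq2 or edgeR, and none had an unadjusted p under 0.05 with any of them. With limma, 0.0675% of all genes passed in either direction. Each of these fits took 1 spread per gene from all 4 groups, and TAC-Veh libraries differed most from each other. For Prrx1 the SD of log2 values was 0.315 in TAC-Veh, 0.0637 in Sham-Veh and 0.0861 in Sham-THZ1. Small drug effects in sham mice could thus be missed. Log2 fold changes of Sham-THZ1 against Sham-Veh ran from -0.39 (SE 0.24) for Twist1 to 0.31 (SE 0.18) for Scx. The groups did not overlap for Prrx1 alone, which was lower in Sham-THZ1 (-0.19, SE 0.11, adjusted p 0.799), 1 of 8 beside 5.05% of all genes.

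**Figure D3:**
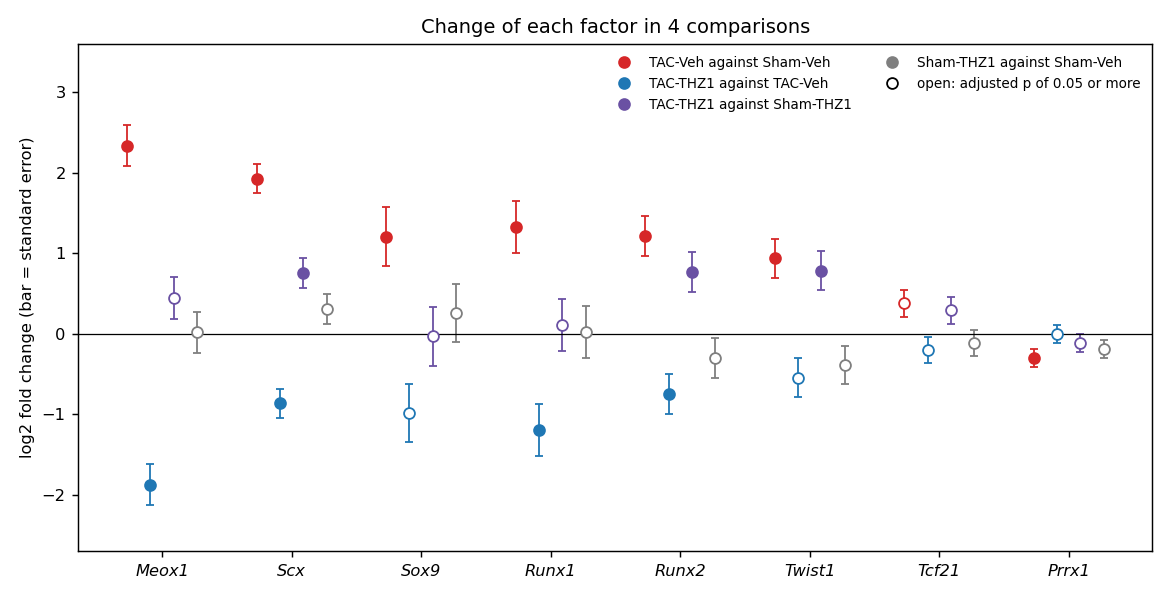
Log2 fold change of each factor in 4 comparisons, with bars of 1 standard error from the limma fit and filled points at an adjusted p under 0.05. TAC-Veh against Sham-Veh ran from -0.30 for Prrx1 to 2.34 for Meox1, and no point of Sham-THZ1 against Sham-Veh was filled.

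Whether the drug effect differed between constricted and sham hearts was tested as an interaction, which uses all 16 libraries. Meox1 (-1.89, SE 0.36, adjusted p 0.00620) and Scx (-1.17, SE 0.26, adjusted p 0.0120) passed. Both genes had a more negative drug effect in TAC than in sham. These were 2 of 8 beside 5.62% of all genes, and none passed in the other direction, beside 4.40%. In sham mice the drug effect was 0.02 (SE 0.26) for Meox1 and 0.31 (SE 0.18) for Scx, neither called. Both interaction calls held without any 1 library. Runx1 gave -1.21 (SE 0.46, adjusted p 0.10) and Sox9 -1.24 (SE 0.51, adjusted p 0.130). Runx1 passed without TAC-Veh replicate 3 (-1.53, adjusted p 0.0149) and in DESeq2 (-1.30, adjusted p 0.0412), and Sox9 passed without TAC-Veh replicate 1 (-1.68, adjusted p 0.0116). The smallest values without 1 library were -0.91 for both genes.

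Each factor was next read against 8 fibroblast identity genes, whose mean log2 value in a library was subtracted from that library. These genes were Pdgfra, Ddr2, Dcn, Dpt, Lum, Fbln1, Islr and Abca8a, receptors and matrix genes of cardiac fibroblasts. Their mean log2 value in Sham-Veh mice was 11.01 ± 0.0894, and Sham-THZ1 mice had 10.97 ± 0.0250 (SD, n = 4). It was 11.58 ± 0.0582 for TAC-Veh and 11.24 ± 0.222 for TAC-THZ1. Of the 8, Islr, Dcn, Lum and Dpt rose with TAC, while Pdgfra gave 0.25 (adjusted p 0.0614). The subtraction moved the median of all genes by -0.58 for TAC and by 0.34 for THZ1 in TAC, so changes here are relative to the identity genes and the shares of all genes called are lopsided.

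Relative to fibroblast identity, Meox1 (1.76, SE 0.22, adjusted p 8.29e-07), Scx (1.35, SE 0.19, adjusted p 2.40e-06), Runx1 (0.75, SE 0.26, adjusted p 0.0132) and Runx2 (0.64, SE 0.23, adjusted p 0.0142) rose with TAC on the log2 scale. These were 4 of 8, beside 4.47% of all genes, and without TAC-Veh replicate 2 the calls for Runx1 (0.47, adjusted p 0.0824) and Runx2 (0.49, adjusted p 0.0702) ended. The call for Runx2 also ended without Sham-Veh replicate 4 (0.54, adjusted p 0.0513). Sox9 (0.63, adjusted p 0.0686) and Twist1 (0.36, adjusted p 0.183) did not pass. Prrx1 fell by 0.88 (SE 0.14, adjusted p 1.50e-05), 1 of 8 beside 71.6% of all genes, and Tcf21 gave -0.20 (SE 0.15, adjusted p 0.232). Tcf21 turned to 0.12 with Pdgfra alone as the reference, and it was called lower without TAC-Veh replicate 2 (-0.33, adjusted p 0.0472). With Pdgfra alone, Sox9 (0.95, adjusted p 0.0145) and Twist1 (0.68, adjusted p 0.0419) passed too. Sox9 also passed without TAC-Veh replicate 1 (1.05, adjusted p 0.000328), without TAC-THZ1 replicate 3 (0.63, adjusted p 0.0470) and with Lum and Dpt left out of the reference (0.70, adjusted p 0.0462), while without TAC-Veh replicate 2 it was 0.33 (adjusted p 0.316).

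With THZ1 in TAC, Meox1 (-1.54, SE 0.22, adjusted p 4.64e-05), Runx1 (-0.85, SE 0.26, adjusted p 0.00995) and Scx (-0.53, SE 0.19, adjusted p 0.0222) fell relative to fibroblast identity. These were 3 of 8, beside 4.17% of all genes. The call for Meox1 held without any 1 library. That for Runx1 ended without TAC-Veh replicate 2 (-0.58, adjusted p 0.0564) or TAC-THZ1 replicate 2 (-0.70, adjusted p 0.0529), and that for Scx without TAC-Veh replicate 1 (-0.36, adjusted p 0.0888), TAC-Veh replicate 2 (-0.46, adjusted p 0.0694) or TAC-THZ1 replicate 3 (-0.42, adjusted p 0.0733). Runx2 gave -0.41 (adjusted p 0.125) and Prrx1 0.34 (adjusted p 0.0503), and none of the 8 rose, beside 50.9%. Over the fits without 1 library the value of Prrx1 ran from 0.21 to 0.45, and it passed without TAC-THZ1 replicate 1 (0.45, adjusted p 0.00951) or TAC-Veh replicate 4 (0.44, adjusted p 0.0185). In treated mice Scx was higher in TAC-THZ1 than in Sham-THZ1 by 0.48 (SE 0.19, adjusted p 0.0483), 1 of 8 beside 1.94% of all genes, and this ended without Sham-THZ1 replicate 2, 3 or 4, TAC-THZ1 replicate 1, 2 or 4, or Sham-Veh replicate 2 or 3, with adjusted p-values of up to 0.119. Prrx1 gave -0.39 there (SE 0.14, adjusted p 0.0385), 1 of 8 lower beside 33.8% of all genes, and with Pdgfra alone as the reference it gave -0.11 (adjusted p 0.759). The call for Prrx1 also ended without any 1 Sham-THZ1 library or TAC-THZ1 replicate 1, 3 or 4, with adjusted p-values of up to 0.161.

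The interaction relative to fibroblast identity passed for Meox1 (-1.59, adjusted p 0.00396) and Scx (-0.87, SE 0.26, adjusted p 0.0314), 2 of 8 lower beside 2.20% of all genes, and none was higher, beside 15.8%. The call for Meox1 held without any 1 library. That for Scx ended with Pdgfra alone as the reference (-0.91, adjusted p 0.0514), without Sham-Veh replicate 1, 2 or 3, Sham-THZ1 replicate 1 or 4, or TAC-Veh replicate 2, with adjusted p-values of up to 0.0695.

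**Figure D4:**
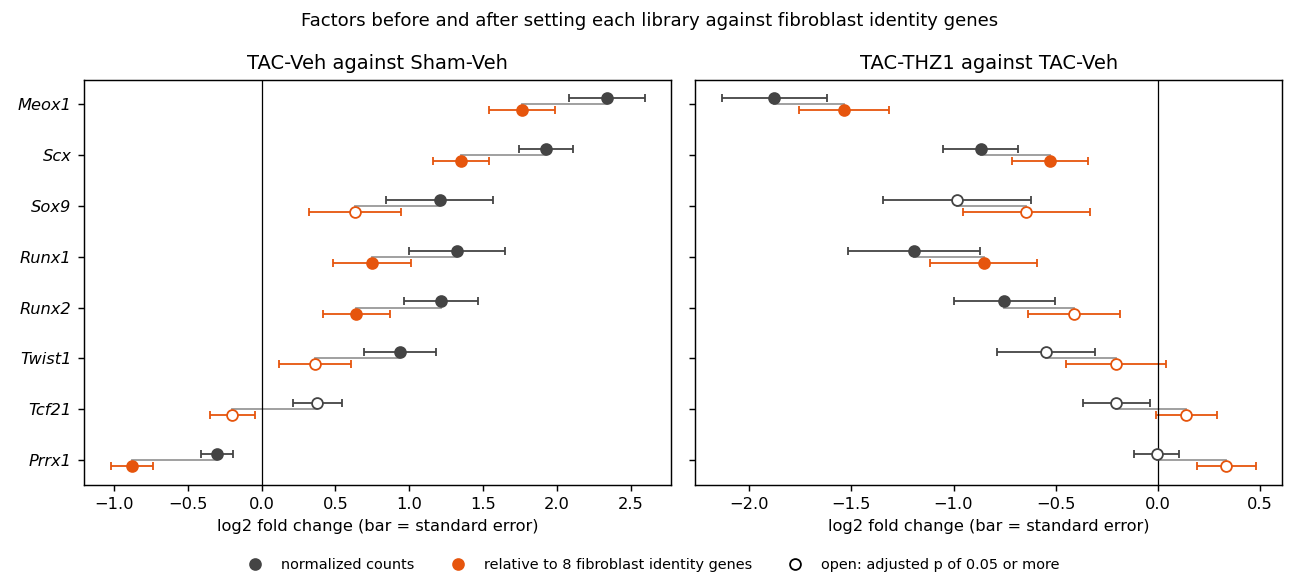
Log2 fold change of each factor on normalized counts (grey) and after each library was set against 8 fibroblast identity genes (orange), with bars of 1 standard error and filled points at an adjusted p under 0.05. Meox1, Scx, Runx1 and Runx2 stayed higher with TAC on both scales. Prrx1 went from -0.30 to -0.88 with TAC, and the subtraction moved the median of all genes by -0.58.

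Paralogs showed how far related genes moved apart. Meox2, the relative of Meox1, ranged over 409 to 588 normalized counts in Sham-Veh mice and 506 to 558 in TAC-Veh mice (log2 fold change 0.10, adjusted p 0.487). The ratio of Meox1 to Meox2, both per kb, had a median of 1.40 in Sham-Veh, 7.09 in TAC-Veh and 2.02 in TAC-THZ1. Prrx2, the relative of Prrx1, had 21.8 to 80.8 normalized counts in TAC-Veh, while Sham-Veh had 4.42 to 10.6 and TAC-THZ1 had 2.44 to 11.9. It rose with TAC (2.28, adjusted p 0.00136) and fell with THZ1 (-2.49, adjusted p 0.00170), while Prrx1 went the other way with TAC. Prrx2 passed the filter on low counts only through TAC-Veh, where it is high, so its differences from other groups carry no weight in a count. The ratio of Prrx1 to Prrx2 had a median of 38.2 in Sham-Veh, 6.83 in TAC-Veh and 32.9 in TAC-THZ1, so Prrx1 stayed the more abundant of the pair in every library.

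For 5 pairs and both comparisons the ratios were put to a two-sided exact permutation test. Its smallest p for 4 against 4 libraries is 0.0286, and adjusted over the 10 tests the smallest value reached was 0.0571, so none passed 0.05. That value was reached by Meox1 over Meox2 (log2 differences of 2.24 with TAC and -1.74 with THZ1 in TAC), by Prrx1 over Prrx2 (-2.58 and 2.48) and by Scx over Tcf21 with TAC (1.55), with no overlap between the groups in these 5 tests. Prrx2 passed the filter on low counts only through TAC-Veh, so the tests of Prrx1 over Prrx2 carry no weight. Scx over Tcf21 had medians of 0.405 in Sham-Veh, 1.02 in TAC-Veh and 0.799 in TAC-THZ1. Runx1 over Runx2 differed by 0.11 with TAC (exact p 0.600) and by -0.44 with THZ1 (exact p 0.114). Twist1 over Twist2 differed by 0.27 (exact p 0.457) and -0.37 (exact p 0.343), with Twist2 at 9.55 to 49.4 normalized counts over all libraries.

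**Figure D5:**
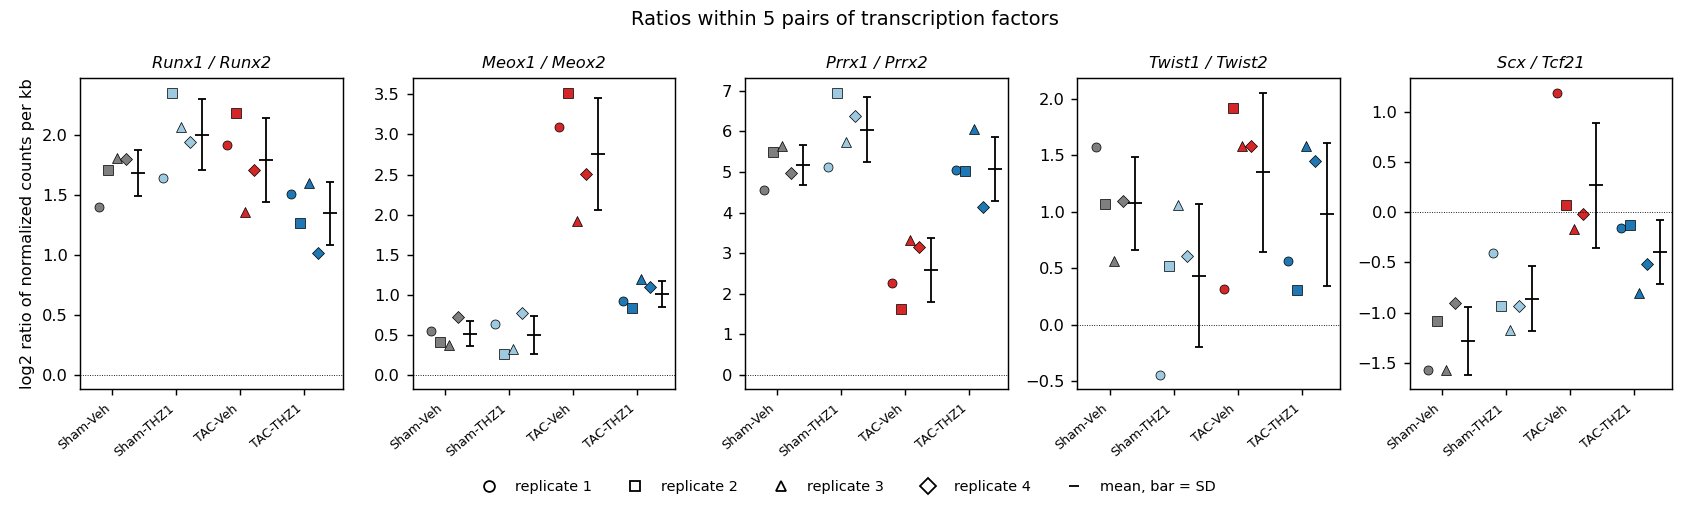
Log2 ratio of normalized counts per kb within 5 pairs of genes in every library, by group, with a bar for mean ± SD (n = 4) and a dotted line where both genes are equal. Meox1 gained on Meox2 in all TAC-Veh libraries, and the Runx1 to Runx2 ratio of TAC-Veh lay across that of Sham-Veh. Prrx1 lost on Prrx2 in all TAC-Veh libraries, but Prrx2 passed the filter on low counts only through that group.

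Among the other paralogs Sox8 rose (0.89, adjusted p 0.0241) and Sox10 (-2.46, adjusted p 0.000830) and Tcf15 (-0.65, adjusted p 0.0159) fell with TAC. Of 8 paralogs 2 were called higher, beside 21.4% of all genes, and 2 lower, beside 23.6%. Prrx2 is 1 of those called higher and carries no weight in that count. Sox10 had 42.5 to 58.3 normalized counts in the Sham-Veh mice and 1.18 to 17.0 in the TAC-Veh mice. It is the defining factor of Schwann cells, and 3 of 3 tested Schwann cell markers fell as well, and the 4 markers listed summed to 298 to 363 normalized counts in the Sham-Veh mice and 95.2 to 146 in the TAC-Veh mice. The call for Sox8 ended without TAC-Veh replicate 2 (0.70) or Sham-Veh replicate 3 (0.69) or 4 (0.85).

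Partners and inhibitors of the factors had a median log2 fold change of 0.20 with TAC, beside 1.21 for the 8 factors. Cbfb, the partner subunit of RUNX proteins, gave a log2 fold change of 0.02 with TAC (adjusted p 0.887), and THZ1 in TAC gave -0.14 (adjusted p 0.165). The E proteins Tcf3, Tcf4 and Tcf12, which pair with helix-loop-helix factors, did not pass with TAC, and Tcf4 (-0.25) and Tcf12 (-0.31) fell with THZ1. The Id proteins bind E proteins and keep them off DNA, and Id2 (0.42, adjusted p 0.0410), Id3 (0.63, adjusted p 4.93e-05) and Id4 (0.79, adjusted p 0.0286) rose with TAC. The call for Id2 ended without TAC-Veh replicate 1, 3 or 4, Sham-Veh replicate 2, 3 or 4 or Sham-THZ1 replicate 1, with values of 0.34 to 0.45, and that for Id4 without TAC-Veh replicate 1 or 2 or Sham-Veh replicate 2 or 3, with values of 0.54 to 0.80. In all, 3 of 8 partners and inhibitors rose with TAC, beside 21.4% of all genes, and none fell, beside 23.6%. With THZ1 in TAC 2 fell, beside 14.2%, and none rose, beside 15.1%.

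Of 16 tendon and cartilage genes, the programs that Scx and Sox9 are known to direct, 8 were tested. Tnmd, Col9a2 and Cilp2 passed the filter only through TAC-Veh, where they are high, so their differences from other groups carry no weight in a count. Of the other 5, Fmod and Comp rose with TAC and fell with THZ1 in TAC. Col11a2 (-0.65) and Sox6 (-0.68) fell with TAC, and Sox5 did not pass. Over all genes, 21.4% rose and 23.6% fell with TAC, and 14.2% fell with THZ1 in TAC. Tnmd, the tendon membrane protein tenomodulin, had 0 reads in every Sham-Veh library and 166, 129, 71.3 and 47.7 normalized counts in TAC-Veh. Set against 3 reads per library, the TAC-Veh mean was at least 30.0-fold higher and the lowest TAC-Veh library at least 13.8-fold. Tnmd had 2.18, 1.27, 8.14 and 6.93 in TAC-THZ1. Fmod went from 11.3 ± 5.06 in Sham-Veh to 686 ± 300.2 in TAC-Veh and 66.4 ± 29.1 in TAC-THZ1, and Comp from 54.5 ± 10.2 to 2831 ± 1530.2 and 249.9 ± 107 (SD, n = 4), both matrix proteins of tendon and cartilage. The classical cartilage genes Col2a1 and Acan did not reach the filter, with at most 7 and 12 reads in a library.

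Bone genes, the program of Runx2, were mostly below the filter too, with 4 of 13 tested. Of these 4, 2 rose and 1 fell with TAC, beside 21.4% and 23.6% of all genes. In TAC, 2 fell with THZ1, beside 14.2% of all genes. Spp1 (4.11, adjusted p 1.48e-05), the matrix protein osteopontin that macrophages also make, and Alpl (0.62, adjusted p 0.000889) rose with TAC and Mmp13 (-1.38, adjusted p 0.0204) fell. Spp1 (-2.91) and Alpl (-0.40) fell with THZ1 in TAC, and the call for Alpl ended without TAC-Veh replicate 1 (-0.31) or 2 (-0.39) or TAC-THZ1 replicate 1 (-0.39), 2 (-0.36) or 4 (-0.32). The osteoblast factor Sp7 had at most 3 reads in a library, Bglap and Ibsp at most 1 each, and Bglap2 had none, at a depth where 3 reads per library could go unseen. The call for Mmp13 ended without TAC-Veh replicate 1 (-0.89), Sham-Veh replicate 1 (-1.26) or Sham-Veh replicate 3 (-1.30).

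Activated fibroblast genes rose with TAC in 14 of 15, all but Acta2 (-0.07, adjusted p 0.788), with a median of 2.97, beside 21.4% of all genes. With THZ1 in TAC 13 fell, with a median of -2.30, beside 14.2% of all genes. Cthrc1 (5.37), Thbs4 (5.29) and Ltbp2 (5.08), all secreted matrix proteins, rose most with TAC. These counts and medians include Cthrc1, which passed the filter on low counts only through TAC-Veh and so carries no weight in them. The list was chosen with earlier results of these data known, so its counts are not independent of those results. The 15 genes summed to 58136 to 183511 normalized counts in TAC-Veh and 13520 to 23655 in TAC-THZ1, against 13811 to 16902 for Sham-Veh mice. Of 11 other mesenchymal factors tested, Foxs1 (1.19, adjusted p 0.000143) and Snai1 (0.72, adjusted p 0.0268) rose and Hic1 (-0.66, adjusted p 0.0219) fell with TAC, with a median of 0.01. Neither count was above the share of all genes, 21.4% for higher and 23.6% for lower. The call for Snai1 ended without TAC-Veh replicate 2 (0.50) or 4 (0.69) or Sham-Veh replicate 2 (0.73) or 3 (0.64), and that for Hic1 without TAC-Veh replicate 1 (-0.38) or Sham-Veh replicate 2 (-0.60). Of 17 effectors of TGF-beta and mechanical signals, 2 rose with TAC, Skil (0.57, adjusted p 0.00594) and Wwtr1 (0.40, adjusted p 0.000340), beside 21.4% of all genes. Another 3 fell, beside 23.6%, and included Smad3 (-0.44, adjusted p 0.00900) and Tead3 (-0.25, adjusted p 0.00772). The median over the list was 0.07, and neither count was above the share of all genes.

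Markers of other cells moved with the groups, and their part in the values of the factors was not tested. Their counts here and in the next paragraph stand beside 21.4% of all genes that rose and 23.6% that fell with TAC. With THZ1 in TAC these shares were 15.1% and 14.2%. Of 6 macrophage markers 4 rose with TAC, and none changed with THZ1 in TAC. The 6 summed to 6993 to 8610 normalized counts in Sham-Veh mice, and TAC-Veh mice had 10646 to 13014 and TAC-THZ1 mice 7637 to 15453. Of 6 cardiomyocyte markers 4 fell with TAC and 4 rose with THZ1 in TAC. Of 3 mesothelial markers tested, 2 rose with TAC, from sums of 0 to 54.1 in Sham-Veh to 36.4 to 117 in TAC-Veh. Neutrophil markers summed to 49.9 to 86.6 in Sham-Veh, 111 to 255 in TAC-Veh and 195 to 6590 in TAC-THZ1. Of 7 mural markers 1 rose, Tagln (0.80), and 4 fell with TAC, Abcc9 (-1.25) and Myh11 (-0.95) among them, and their sums went from 31628 to 33590 in Sham-Veh mice to 20478 to 29230 in TAC-Veh mice, with no overlap. Of the 7 mural markers 2 rose and 2 fell with THZ1 in TAC, Tagln (-1.06) among those that fell. The rise of Tagln with TAC ended without TAC-Veh replicate 1 (0.65) or 2 (0.60) or Sham-Veh replicate 3 (0.63). Of 6 endothelial markers 2 fell with TAC, Kdr (-0.39) and Cdh5 (-0.32), and 3 fell with THZ1 in TAC. Endothelial sums of 21282 to 23605 in Sham-Veh mice overlapped those of 17796 to 23838 in TAC-Veh mice. The call for Kdr ended without TAC-Veh replicate 1 (-0.30) or Sham-Veh replicate 1 (-0.34), and that for Cdh5 without TAC-Veh replicate 1, 2 or 3 or Sham-Veh replicate 2 or 4, with values of -0.32 to -0.23.

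Runx1 is also a factor of blood cells. Of 3 megakaryocyte and platelet markers Pf4 rose with TAC (0.52), and their sums of 221 to 307 in Sham-Veh mice did not overlap those of 324 to 416 in TAC-Veh mice, while TAC-THZ1 mice had 377 to 596. Lymphocyte markers summed to 65.5 to 85.8 in Sham-Veh and 75.2 to 114 in TAC-Veh, with none of 3 tested called.

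Animals of a group differed together in several factors. TAC-Veh replicate 2 had the highest TAC-Veh value for Meox1, Runx1, Runx2, Sox9, Tcf21 and Twist1, and also the highest Postn, at 65868 normalized counts. TAC-Veh replicate 3 had the lowest TAC-Veh value for Meox1, Runx1, Runx2, Scx and Twist1. TAC-THZ1 replicate 2 had the lowest TAC-THZ1 value for Meox1, Runx1, Runx2, Sox9, Tcf21 and Twist1 and the lowest Postn, at 2029. Its fibroblast identity mean was 10.97 on the log2 scale, within the sham range of 10.9 to 11.1.

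For each factor, genes among the 3 with the most similar profile are named, found by the root mean square difference of z-scored log2 values over the 16 libraries. The choice used these same libraries, so the direction of change of the named genes follows from it and is not a separate result. Meox1 was closest to Enpp1 (0.137), Fstl1 (0.138) and Rtn4 (0.157), and Fstl1, a secreted glycoprotein, was 4.28-fold higher with TAC and 3.29-fold lower with THZ1 in TAC. Scx was closest to Des (0.177), Ergic3 (0.212) and Mfge8 (0.218), and Des, the muscle filament desmin, changed by 0.89 with TAC and -0.43 with THZ1 in TAC. Runx1 was closest to Lgmn (0.280), Stt3a (0.283) and Cd44 (0.296), and Runx2 to Tmem154 (0.262) and Gpm6b (0.266). The others had more distant neighbours. Sox9 was closest to Serpinh1 (0.420), the collagen chaperone, Zfp462 (0.461) and Mid1 (0.463), Tcf21 to Aldh1a2 (0.361) and Fzd2 (0.386), Twist1 to Slitrk4 (0.376), Med9 (0.382) and Trmt6 (0.387), and Prrx1 to Daam1 (0.338), with Tmed8 (0.405) also among its 3. Between factors, Meox1 and Runx2 were the closest at 0.420, and Scx and Prrx1 the farthest apart at 1.80.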

How the data were processed

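Ventricle RNA of 16 mice was made into stranded mRNA libraries and sequenced as single-end reads. The authors aligned reads to mm9 with TopHat 2.1.1, counted them per GENCODE gene with htseq-count in reverse-stranded mode and divided each library by a DESeq2 size factor. The deposited signal is thus a normalized count. It held whole multiples of a step in each library, which gave back whole reads for 100% of the values within 0.001 reads. Totals ran from 21.4 to 35.8 M (mega) reads in genes, and size factors from 0.749 to 1.40.

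Genes with at least 10 normalized counts in at least 4 libraries (13331) were tested on log2(normalized count + 1) with limma 3.58.1 under R 4.3.3, a scale that understates changes of low genes. The fit had 1 mean per group over all 16 libraries and eBayes with a trend, and p-values were adjusted by Benjamini and Hochberg within each of 5 contrasts. A gene was called at an adjusted p under 0.05. A second fit subtracted the mean of 8 fibroblast identity genes, which were left out of the 13323 genes tested. Exon lengths and positions came from GENCODE on NCBIM37, and promoters from RefSeq on GRCm38.p6, used for letters alone. In simulated data for TAC-Veh against Sham-Veh over 13331 genes, 87% of 2-fold and 95% of 4-fold changes were called, and 6.67% of calls were false. The simulation changed 200 genes and gave every group the same spread per gene. In the data limma called 45.0% of genes in this contrast and spread differed between groups, so these rates may not hold there.

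The members and gene lists were chosen with earlier results of these data known. The named genes were all 8 members, up to 3 genes of each list with the largest called change with TAC, the genes of 5 pairs, and the 3 nearest profiles. Col2a1, Acan, Sp7, Bglap, Bglap2, Ibsp, Postn, Cyp1a1, Pdgfra, Dpt, Col9a2, Cilp2, Col11a2, Sox6, Sox5, Acta2, Tcf15, Wwtr1, Tead3, Cbfb, Tcf3, Tcf4 and Tcf12 were named after their values were seen. Some genes that the rule names are not reported here. Alternatives covered the pseudocount, filter, scaling, samples fitted, weights, thresholds, the replicate number as a block, leaving out each library, and DESeq2 1.42.0 and edgeR 4.0.16 on recovered reads. Replicate numbers were checked for pairing by the correlation of deviations from group means, which ran from -0.43 to 0.117, with 1 of 16 over 0.1, so they were not treated as pairs. The labels gave no batch. Per the study's methods the drug dose was described differently from the labels, and the labels were followed. The cultured-cell data of the study were not used here. Figures were drawn with Matplotlib 3.10.9.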

Additional observations from a re-analysis of the deposited data

Results flagged for a closer look

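Of 32 sets of 4 values (8 factors in 4 groups), 2 held a library far from the other 3 by Dixon's test, a test that marks about 1 set in 20 by chance. Scx in Sham-THZ1 replicate 1 was at 109 normalized counts against 84.1 to 86.4 in the other three. Without that library the interaction for Scx was -1.09 (limma, adjusted p 0.0295) and TAC-THZ1 against Sham-THZ1 was 0.84 (adjusted p 0.0123). Sox9 in TAC-THZ1 replicate 3 was at 148 normalized counts against 58.6 to 69.3.

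The effect of THZ1 differed between constricted and sham hearts for 2 of the 8 factors by the interaction term. Both differences were negative, beside 5.62% of all genes, and none was positive, beside 4.40%. For Meox1 the drug effect in TAC minus that in sham was -1.89 on the log2 scale (limma, adjusted p 0.00620). For Scx it was -1.17 (adjusted p 0.0120).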

How the results depend on the processing

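Over all alternatives, 1141 of 1198 values of the 8 factors kept their side of the threshold on normalized counts, 39 lost and 18 gained a call. The sign turned in 25 of them, for 7 differences that were not called. Relative to fibroblast identity 785 of 840 kept their side, 33 lost and 22 gained a call, and 11 uncalled values turned sign. Of 10072 values of other named genes, 9601 kept their side, 372 lost and 99 gained a call, and 181 uncalled values turned sign. No called value turned sign. The causes of changed calls were not tested. Of 4 factors lower with THZ1 in TAC, 2 remained when only those groups were fitted, 2 at an adjusted p under 0.01 and 2 at the fold threshold of the study. Of 3 higher in TAC-THZ1 against Sham-THZ1, 1 remained with a mean of at least 50, where fewer factors were tested, and 1 at an adjusted p under 0.01. The interaction kept 1 of 2 at an adjusted p under 0.01. Relative to fibroblast identity, 0 in place of 1 were higher in TAC-THZ1 against Sham-THZ1 with a pseudocount of 4, and 1 in place of 2 passed the interaction with Pdgfra alone. Per kb in Sham-Veh, Runx2 was at 3.91 with the longest transcript and, in an alternative chosen after seeing the data, at 4.00 over unshared exon bases, and Prrx1 at 244 with the longest transcript.

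Leaving out each library in turn gave 5 to 7 factors higher with TAC, 3 to 5 lower with THZ1 in TAC, 1 to 3 higher in TAC-THZ1 against Sham-THZ1 and 2 to 3 in the interaction. Relative to fibroblast identity the counts were 2 to 5, 1 to 4, 0 to 1 and 1 to 4 in that order. With the replicate number as a block, 6, 4, 3 and 2 factors passed in these comparisons, and 5, 3, 1 and 2 relative to fibroblast identity, where Sox9 with TAC (0.63, limma, adjusted p 0.0472) and Prrx1 with THZ1 in TAC (0.34, adjusted p 0.0322) were gained. No other call for the factors changed with the block. The depth limits Runx2 most, at 14 to 118 reads per library.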
